A study of Mus musculus with 4 samples.

Results

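Genes of cell division and DNA replication were followed in the lungs of inbred mice after inhalation of hexamethylene diisocyanate (HDI), a reactive component of polyurethane paints that irritates the airways. The members were the probe sets whose platform symbol is 1 of 42 listed genes. Of these, 39 genes were found on the array with 53 probe sets, among 8251 genes with a named probe set: 24 of 26 cell division genes and 15 of 16 DNA replication genes. Ccnb1 and Bub1b had no probe set of their own symbol in the annotation used here. The 2 probe sets of Tyms also carry the symbol of a pseudogene and were left out.

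Total RNA of pooled whole lungs was read on 4 Affymetrix oligonucleotide arrays, 1 per pool. The groups were unexposed lungs and lungs collected 6, 18 or 90 h after mice inhaled HDI as an aerosol (10 mg per cubic metre). All mice were of the inbred strain C57BL/6J. The labels used here give neither the number per pool, nor age, nor the length of exposure. Since a single array stands for each pool, replicate error is unknown, no test was run, and folds describe the arrays alone. The comparisons with unexposed lungs all share the same array. In RNA of whole lung, more or fewer cells of a kind and more or less RNA per cell cannot be told apart.

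A dividing cell first copies its DNA and then separates the copies. Genes for replication are switched on by E2F transcription factors as a cell commits to division, and their products load the MCM helicase, supply nucleotides and run the fork. Genes for mitosis peak later, largely through promoter elements called CHR (cell cycle genes homology region) and through the factor NF-Y. Most cells of an adult lung are out of cycle, and they can re-enter it when the epithelium or endothelium is damaged.

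Promoters are shown as a description of the groups. The motifs searched are those known from genes of these kinds, so a contrast between the groups could be foreseen and is no independent support. RefSeq promoters (build GRCm38.p6, from 250 bases before to 50 bases after the start) were given for 34 of the 42 genes. The search for CHR took TTTGAA and, as its variant with a central CpG, TTCGAA. The NF-Y box was spelled CCAAT. For E2F the spelling TTCCCGC was taken, as was the related heptamer TTGGCGC and, as the last spelling searched, TTCGCGC. Both strands were read, and overlapping matches, of 1 motif or of different ones, were each counted. The promoters printed are those of the 4 cell division genes and the 2 replication genes that stood furthest from unexposed lungs at 90 h within their set, among genes with a promoter in the table, and capitals mark the matches of any of the 3 motifs. Birc5 lies at chr11:117848987-117849286 (plus strand), Cdc20 at chr4:118437294-118437593 (minus strand), Ccnb2 at chr9:70421505-70421804 (minus strand) and Mki67 at chr7:135716330-135716629 (minus strand). The replication genes Mcm3 and Mcm5 lie at chr1:20820263-20820562 (minus strand) and chr8:75109259-75109558 (plus strand).
Birc5: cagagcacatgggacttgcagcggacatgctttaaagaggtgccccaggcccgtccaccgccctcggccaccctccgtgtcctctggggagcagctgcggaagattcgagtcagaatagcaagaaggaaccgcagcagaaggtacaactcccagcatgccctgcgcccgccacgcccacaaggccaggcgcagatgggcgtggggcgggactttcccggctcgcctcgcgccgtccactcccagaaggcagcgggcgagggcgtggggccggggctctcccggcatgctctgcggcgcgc
Cdc20: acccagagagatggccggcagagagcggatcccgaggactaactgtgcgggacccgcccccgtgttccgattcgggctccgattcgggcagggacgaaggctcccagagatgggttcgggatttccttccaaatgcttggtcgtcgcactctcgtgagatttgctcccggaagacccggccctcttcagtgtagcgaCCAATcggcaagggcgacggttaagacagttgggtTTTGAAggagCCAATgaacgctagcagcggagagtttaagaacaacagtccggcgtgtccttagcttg
Ccnb2: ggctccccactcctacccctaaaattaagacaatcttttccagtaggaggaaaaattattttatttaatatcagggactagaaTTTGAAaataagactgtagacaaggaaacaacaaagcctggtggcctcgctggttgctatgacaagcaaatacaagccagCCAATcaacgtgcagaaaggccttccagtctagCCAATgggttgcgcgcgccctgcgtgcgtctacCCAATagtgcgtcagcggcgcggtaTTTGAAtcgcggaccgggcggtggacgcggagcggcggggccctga
Mki67: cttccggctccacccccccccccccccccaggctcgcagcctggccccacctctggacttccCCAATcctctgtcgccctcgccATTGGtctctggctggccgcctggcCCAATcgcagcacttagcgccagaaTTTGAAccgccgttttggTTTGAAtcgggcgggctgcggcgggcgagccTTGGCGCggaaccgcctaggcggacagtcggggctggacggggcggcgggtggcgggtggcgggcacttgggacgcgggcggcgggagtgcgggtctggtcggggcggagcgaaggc
Mcm3: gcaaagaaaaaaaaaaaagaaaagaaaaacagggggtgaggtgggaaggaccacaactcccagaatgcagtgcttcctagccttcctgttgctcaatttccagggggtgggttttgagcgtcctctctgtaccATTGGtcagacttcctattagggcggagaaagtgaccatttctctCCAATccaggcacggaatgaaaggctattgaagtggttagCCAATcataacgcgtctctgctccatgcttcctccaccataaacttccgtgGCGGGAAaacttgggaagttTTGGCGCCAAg
Mcm5: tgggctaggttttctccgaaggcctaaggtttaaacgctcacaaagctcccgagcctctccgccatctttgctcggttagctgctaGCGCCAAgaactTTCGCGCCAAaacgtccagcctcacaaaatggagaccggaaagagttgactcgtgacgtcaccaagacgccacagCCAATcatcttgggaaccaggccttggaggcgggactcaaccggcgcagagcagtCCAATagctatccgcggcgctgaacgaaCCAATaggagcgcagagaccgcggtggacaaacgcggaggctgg

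In these windows Cdc20 held 1 CHR match and 2 NF-Y boxes, Ccnb2 held 2 and 3, and Mki67 held 2 and 3 with 1 E2F match. Mcm3 and Mcm5 each held 3 E2F matches, 3 NF-Y boxes and no CHR match. The Birc5 window held none of the 3 motifs, which says only that these letters are not in it. A match is a description of the sequence and not evidence that a factor binds.

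The listed genes as a whole, the printed ones among them, showed the same contrast. A CHR match stood in 14 of 20 cell division promoters (70%) and in 3 of 18 replication promoters (16.7%), against 19.2% of all 32841 promoters in the table. E2F matches ran the other way, with 4 of 20 cell division promoters (20%) and 11 of 18 replication promoters (61.1%), against 8.07% of all promoters. NF-Y boxes were frequent in both, in 80% and 55.6% against 37.4%. At least 2 NF-Y boxes stood in 65% of cell division promoters, 27.8% of replication promoters and 11.7% of all. The 18 replication promoters belong to 14 genes, 3 of which have several start sites. Top2a had 4 CHR matches and 6 NF-Y boxes, and Cdk1, the mitotic kinase, 2 and 3 with 2 E2F matches.

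**Figure D1:**
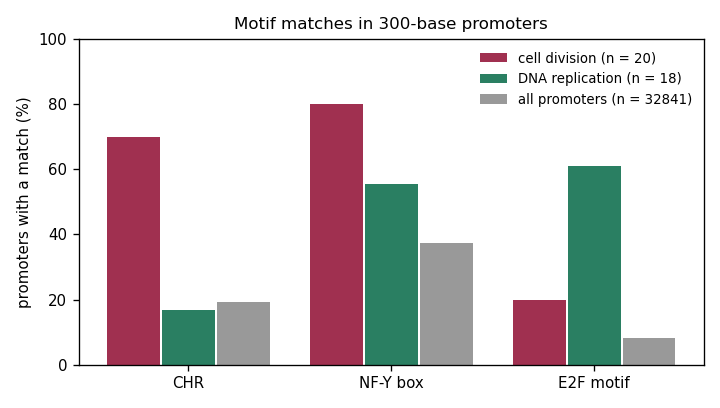
Share of promoters of 300 bases with at least 1 match (bars, percent) for CHR, the NF-Y box and E2F motifs. CHR matches stand in 70% of cell division promoters and 16.7% of replication promoters, and E2F matches in 20% and 61.1%. Grey bars give all promoters of the table.

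Intensities were scaled so that the 4 arrays had the same trimmed mean, and a floor of 77.7 units, the 40th percentile of all scaled values, was set for dim probe sets. Each gene is given by its brightest probe set. Where only 1 of the arrays compared is above the floor, the fold is a lower limit (at least N-fold, or a bound for log2 values), and where neither is, no fold is given. Units are scaled intensity units throughout, and they do not compare levels between genes. The 4 arrays were alike, with 5712, 5691, 5664 and 5732 genes above the floor in the unexposed, 6, 18 and 90 h pools. As a yardstick of technical noise, probe sets of the same gene disagreed by a robust SD (log2) of 0.27 for both 6 h and 18 h and 0.25 for 90 h, each against unexposed. This leaves out variation between animals and pools. Of 10 lung epithelium and endothelium markers on the array, 9 were above the floor in every pool, and Sftpd was below it in all 4.

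Several cell division genes came above the floor in the 90 h pool alone. Of the 24 genes, 9 were above the floor in all 4 pools and 7 in none, against 5083 and 1966 of all 8251 genes. Another 5 (Birc5, Cdk1, Mki67, Top2a and Cks2) were above it on the 90 h array only, against 1.26% of all genes. Of the 15 replication genes 4 were above the floor in all pools, 6 in none, and 0 in the 90 h pool only. The median scaled intensity of the 24 cell division genes was 72.5, 70.3, 54.8 and 129.6 units in the unexposed, 6, 18 and 90 h pools. That of the 15 replication genes was 73.7, 75.2, 69.1 and 92.5 units, and that of all genes 131, 129.6, 130.1 and 132.

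The largest difference among the members came from the chromosomal passenger complex, which corrects the attachment of chromosomes to the spindle and directs the final cut between daughter cells. Birc5 (survivin), its subunit and also an inhibitor of apoptosis, read 34.0, 33.4, 29.9 and 529 units in the unexposed, 6, 18 and 90 h pools. It was below the floor in the first 3 pools and far above it in the last. At 90 h it was at least 6.81-fold higher than in unexposed lungs, the highest log2 difference (2.77) among all 8251 genes. Birc5 has 1 probe set on the array, so no second probe set bears on this value. Aurkb, the kinase of the same complex, read 91.4, 85.2, 91.3 and 164 units. Its first 3 values lay within the yardstick of each other, and the 90 h value was 1.79-fold above unexposed.

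The anaphase-promoting complex marks cyclins and securin for destruction. Of 4 members on the array that regulate or serve it, only Cdc20 was above the floor in any pool. Cdc20, the mitotic activator of the complex, read 86.6, 101, 119 and 234 units in the unexposed, 6, 18 and 90 h pools. Unlike most members it was not below unexposed at 6 or 18 h, and at 90 h it was 2.70-fold higher. Ube2c, the ubiquitin-conjugating enzyme of the complex, was below the floor in every pool, with a highest value of 45.1 units. The spindle checkpoint genes Bub1 and Mad2l1, which hold the complex back until chromosomes are attached, were below the floor as well. Mad2l1 had its highest value, 59.1 units, at 90 h.

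Of the 6 genes for mitotic cyclins, their kinase and its partners, 6 were below unexposed at 6 h without a floor and 5 at 18 h, the exception being Cks2, against 53.7% and 52.7% of all genes. At 90 h 4 were above unexposed, against 53%, and 2 of these, Cdk1 and Cks2, were below the floor in all earlier pools. Ccnb2, a B-type cyclin, read 85.2, 70.9, 63.4 and 209.7 units in the unexposed, 6, 18 and 90 h pools. Only its unexposed and 90 h values were above the floor, and they differed 2.46-fold. Ccna2, the cyclin of S phase and early mitosis, read 129, 97.5, 86.7 and 168 units, above the floor in all 4 pools. Its log2 difference from unexposed was -0.40 at 6 h, -0.57 at 18 h and 0.38 at 90 h. Cdk1 itself read 39.5, 27.7, 31.4 and 132 units, at least 1.70-fold higher at 90 h than in unexposed lungs. Cks2, a small protein that binds Cdk1, read 28.2, 21.7, 29.3 and 98.4 units.

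Other partners did not follow this course. Cks1b, the second such small protein, read 111, 69.8, 81.7 and 104 units, lower at 6 and 18 h but near unexposed at 90 h. Cdc25c, a phosphatase that activates Cdk1, was below unexposed in every exposed pool, at 166, 122, 119 and 127 units in the unexposed, 6, 18 and 90 h pools. Its second probe set was below the floor on all 4 arrays.

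Among genes of chromosome structure, Mki67 and Top2a were above the floor in the 90 h pool alone. Mki67, a marker of cycling cells that coats mitotic chromosomes, read 50.6, 44.1, 41.4 and 155 units in the unexposed, 6, 18 and 90 h pools. Its other probe set, with a name suffix that warns of cross-hybridisation, read 19.9, 22.9, 29.8 and 109 units. Both were above the floor in the 90 h pool alone, and the brighter one was at least 1.99-fold higher, just under 2-fold. Top2a, the topoisomerase that untangles sister chromosomes, read 18.4, 27.1, 35.2 and 108 units. Cenpa, the histone of centromeres, was near the floor throughout, at 78.7, 75.6, 76.6 and 96.7 units.

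Stmn1 and Kif22 were lowest at 6 or 18 h. Stmn1 (stathmin), which destabilises microtubules, read 323, 200.5, 235 and 478 units in the unexposed, 6, 18 and 90 h pools. It was 1.61-fold lower at 6 h and 1.48-fold higher at 90 h than in unexposed lungs. Its second probe set, at 157, 112, 138 and 137 units, shared the lower value at 6 h but not the higher one at 90 h. Kif22, a motor that pushes chromosome arms away from the poles, read 337, 225, 194 and 275 units by a marked probe set. It was 1.74-fold lower at 18 h and still below unexposed at 90 h. The motors Kif11 and Kif20a and the kinase Aurka were below the floor in all 4 pools by their brightest probe sets.

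Plk1, a kinase needed for spindle poles and mitotic exit, cannot be read clearly here. All 3 of its probe sets carry marked suffixes. The brightest read 132, 172, 171 and 203 units in the unexposed, 6, 18 and 90 h pools, a log2 difference of 0.62 at 90 h. The others read 105, 70.1, 53.4 and 84.3 units and 73.3, 53.8, 48.6 and 74.2 units. These were below unexposed at 6 and 18 h, the opposite of the brightest.

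**Figure D2:**
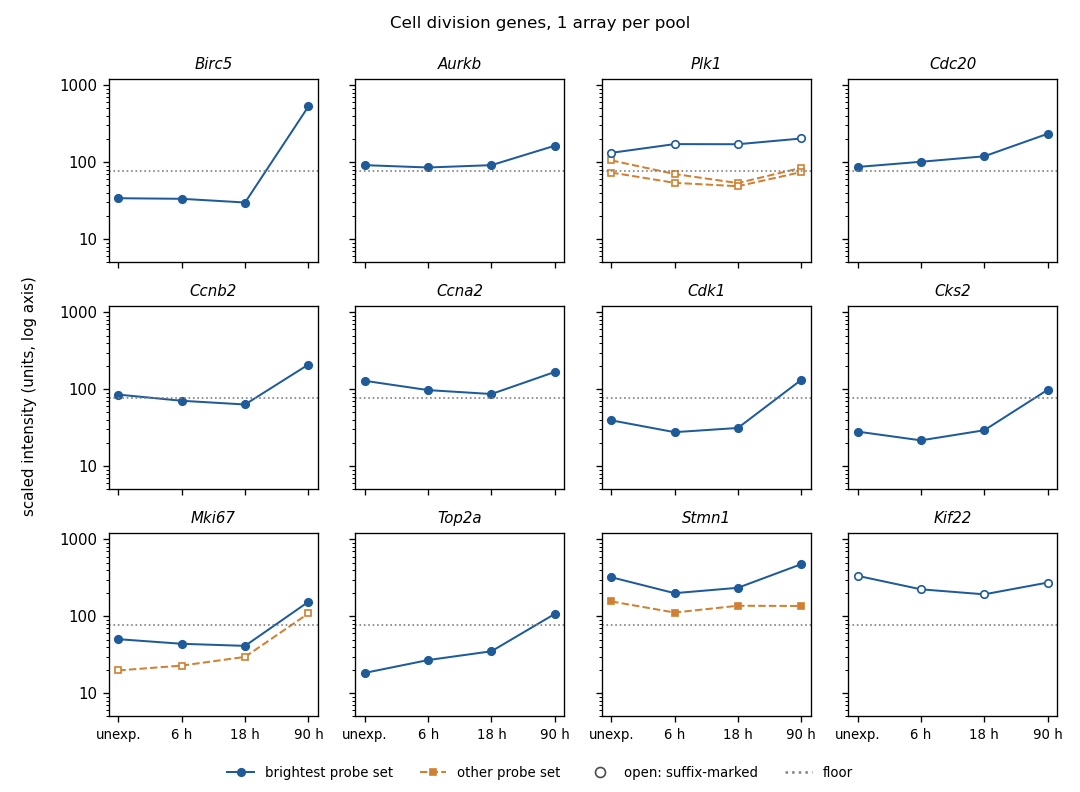
Scaled intensity (units, log axis) of 12 cell division genes in the unexposed, 6, 18 and 90 h pools, 1 array each, with the brightest probe set in blue and others in orange. Birc5, Cdk1, Cks2, Mki67 and Top2a lie above the floor (dotted, 77.7 units) in the 90 h pool only, while Kif22 stays below its unexposed value.

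Genes of the entry into S phase, counted with cell division, showed smaller differences. Ccne1 (cyclin E1), which starts replication, read 393, 471, 393 and 447 units in the unexposed, 6, 18 and 90 h pools. Ccnd1 (cyclin D1), which links growth signals to the cycle, read 574, 602, 772 and 636 units, highest at 18 h. Its second probe set read 204, 179, 174 and 222 units, with its lowest value at 18 h. The checkpoint kinase gene Chek1 was below the floor in all 4 pools.

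No DNA replication gene above the floor reached 2-fold in any exposed pool against unexposed lungs. Among the subunits of the MCM helicase, Mcm5 read 320.2, 384, 389 and 406 units in the unexposed, 6, 18 and 90 h pools by a marked probe set. The unmarked Mcm5 probe set read 104, 76.6, 122 and 151 units, so the probe sets had opposite signs at 6 h and the same sign at 18 and 90 h. Mcm3 read 73.7, 105, 117 and 114 units by its brightest, marked probe set and 90.4, 61.4, 102 and 114 units by the other, again opposite at 6 h. Mcm4 read 106, 77.5, 69.1 and 92.5 units, and Mcm7 93.3, 75.2, 73.7 and 106 units. Both were below the floor at 6 and 18 h, and at 90 h Mcm7 was above unexposed and Mcm4 was not. Mcm2, Mcm6 and Cdc6, which loads the helicase, were below the floor in every pool.

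Among fork and nucleotide genes, those above the floor did not reach 1.5-fold in any exposed pool against unexposed lungs. Pcna, the sliding clamp of DNA polymerases, read 246, 233, 315 and 296 units in the unexposed, 6, 18 and 90 h pools, a log2 difference of 0.36 at 18 h. Lig1, which joins fragments of the lagging strand, read 111, 83.7, 102 and 110.3 units, lowest at 6 h. The flap endonuclease gene Fen1 passed the floor only at 6 h, with 78.5 units, and the primase genes Prim1 and Prim2 in no pool. Rrm1, the large subunit of ribonucleotide reductase, read 95.2, 68.2, 94.5 and 118 units. Its small subunit Rrm2, whose level tracks S phase, was below the floor throughout but had its highest value, 59.5 units, at 90 h. Tk1, a thymidine kinase of S phase, read 139, 172, 139 and 172 units by its brightest probe set. Its second probe set was below the floor in every pool, at 46.9, 24.7, 13.1 and 18.0 units, highest in unexposed lungs.

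**Figure D3:**
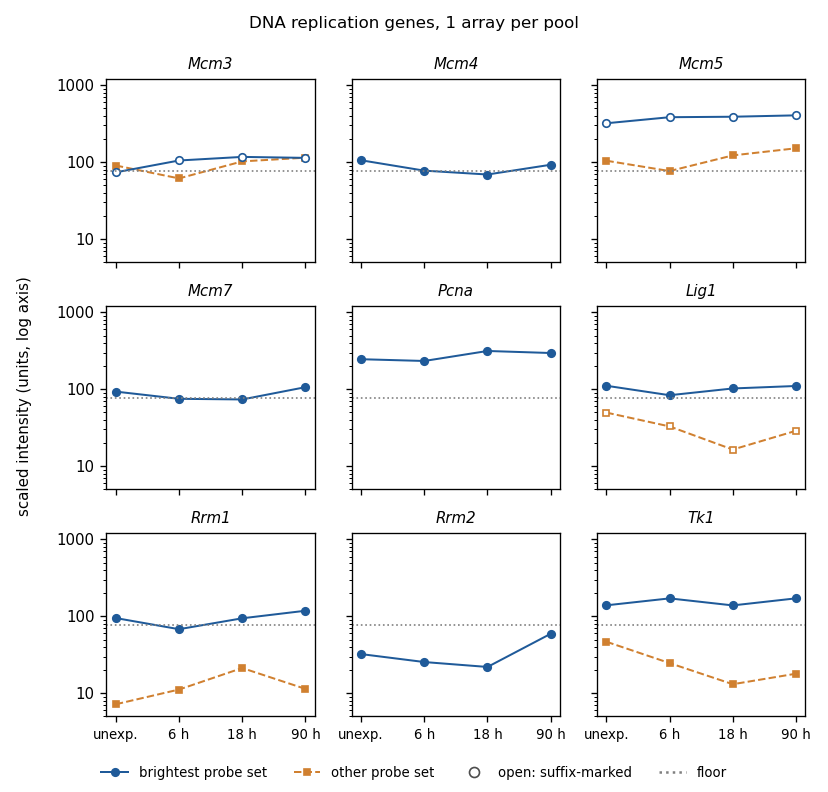
Scaled intensity (units, log axis) of 9 DNA replication genes in the unexposed, 6, 18 and 90 h pools, 1 array each, with the brightest probe set in blue and others in orange. No course rises as far from unexposed to 90 h as those of Birc5, Cdc20 and Ccnb2, and Mcm4, Mcm7 and Rrm1 lie under the floor (dotted, 77.7 units) at 6 h.

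At 6 and 18 h no member was 2-fold away from unexposed lungs in either direction. Of all genes, the 6 h pool held 1.59% at least 2-fold higher and 1.1% as far below. For the 18 h pool these shares were 1.16% and 0.691%. For genes whose mean over the 4 arrays was above the floor, the median log2 difference at 6 h was -0.10 in 13 cell division genes and -0.17 in 8 replication genes, and -0.03 in all genes. At 18 h these medians were -0.02, -0.01 and -0.01. Without a floor, 17 of 24 cell division genes and 10 of 15 replication genes were below unexposed at 6 h, against 53.7% of all genes. In the deposited values before scaling these counts were 13 and 9, against 42%. The largest log2 differences were those of Stmn1 (-0.69), Kif22 (-0.58), Cks1b (-0.51, a bound) and Cdc25c (-0.45) at 6 h. At 18 h they were those of Kif22 (-0.80), Mcm3 (0.59, a bound), Ccna2 (-0.57) and Cdc25c (-0.48). Between 6 and 18 h no member differed 2-fold, against 0.861% of all genes higher at 18 h and 0.848% lower. The medians were then 0.00 and 0.09.

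At 90 h, 3 of 24 cell division genes (Birc5, Cdc20 and Ccnb2) were at least 2-fold above unexposed lungs, against 0.533% of all genes, and none was 2-fold below, against 0.679%. No replication gene was 2-fold away. The median log2 difference was 0.38 in the 13 cell division genes with a mean above the floor, 0.28 in the 8 replication genes and 0.03 in all genes. Over all members on the array, with genes at the floor in both pools at 0, the medians were 0.24, 0.00 and 0.00. Without a floor, the 90 h pool had the highest value of the 4 for 15 of 24 cell division genes and 7 of 15 replication genes, against 26% of all genes. A value below unexposed at both 6 and 18 h and above it at 90 h was seen in 9 and 3 genes, against 10.2%. That count for cell division genes was 7 before scaling, against 8.19% of all genes. With scaling by the median it was 8, against 9.14%, and with quantile normalisation 6, against 9.5%.

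**Figure D4:**
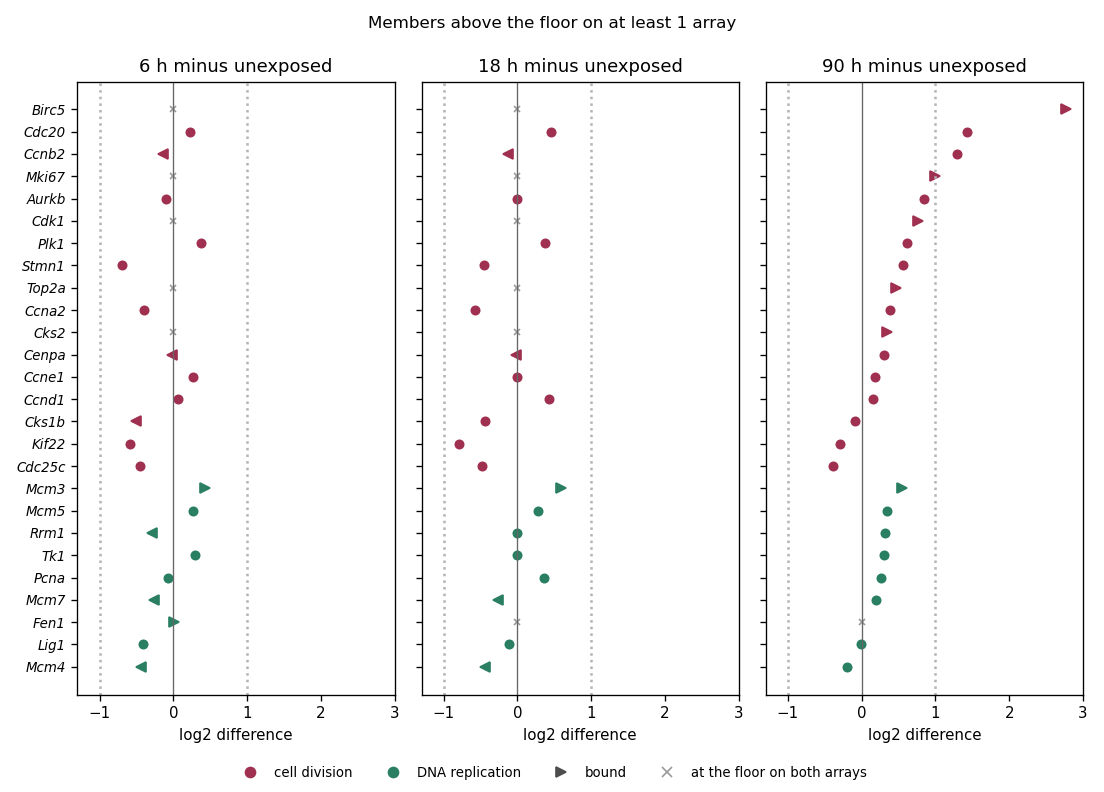
Log2 difference from unexposed lungs at 6, 18 and 90 h for the 26 members above the floor on at least 1 array, with triangles for bounds and crosses for genes at the floor on both arrays. Dotted lines mark 2-fold, which Birc5, Cdc20 and Ccnb2 pass at 90 h and no member passes at 6 or 18 h.

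Set against the 18 h pool, the 90 h pool was higher for nearly every cell division gene when no floor was set. Then 23 of 24 were higher at 90 h than at 18 h, against 53.5% of all genes. The exception was Ccnd1 by its brightest probe set, while its second read 174 units at 18 h and 222 at 90 h. Among replication genes 10 of 15 were higher. Of the 24 cell division genes, 7 were at the floor in both pools. With the floor 16 were higher and 1 lower, against 3168 and 2808 of all 8251 genes. At least 2-fold were Birc5 (6.81-fold or more), Ccnb2 (2.70-fold or more) and Stmn1 (2.03-fold), against 0.654% of all genes, and Cdc20 was 1.96-fold and Ccna2 1.94-fold higher. For Stmn1 this rests on 1 probe set, since the second read 137 units at 90 h and 138 units at 18 h, and with both averaged the fold was 1.42. The 23 of 24 held under each of these scalings. No member was 2-fold lower at 90 h than at 18 h, against 0.691%. The median log2 difference was 0.51 in 13 cell division genes, 0.18 in 8 replication genes and 0.01 in all genes.

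Further genes of mitosis and replication, from lists that hold no member, had smaller medians at 90 h. Of 36 other mitosis genes on the array none was 2-fold from unexposed, against 0.533% of all genes higher and 0.679% lower. A log2 difference above 0 was seen in 17 and below 0 in 4, against 3262 and 2799 of all 8251 genes. The median was 0.20 in 17 genes with a mean above the floor. Without a floor 31 of the 36 were above unexposed, against 18 of the 24 cell division members and 53% of all genes. The 90 h pool was highest for 24 of the 36, against 15 of the 24 and 26%. Mybl2, a transcription factor that acts with the CHR-binding complex, read 72.5, 99.9, 98.5 and 147 units in the unexposed, 6, 18 and 90 h pools, at least 1.89-fold higher at 90 h. Kif23, a motor of cell separation, read 94.3, 110.5, 102 and 171 units. Cdca8, a further subunit of the chromosomal passenger complex, read 52.1, 82.4, 90.4 and 128 units, and Incenp, the scaffold of the same complex, 106, 97.0, 77.2 and 106 units, with no higher value at 90 h. Cdc16, a subunit of the anaphase-promoting complex, read 128, 114, 140.4 and 193 units.

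Of 38 other replication genes on the array none was 2-fold higher at 90 h, against 0.533% of all genes. Of the same 38, 1, Ung, was 2-fold lower, against 0.679%. The median log2 difference was 0.05 in 18 genes. Pold2, a subunit of DNA polymerase delta with a marked probe set, read 285, 238, 232 and 186 units in the unexposed, 6, 18 and 90 h pools, with its lowest value in the last. Rfc3, part of the loader of the clamp, read 137, 116, 93.3 and 96.1 units, and the nucleoside kinase gene Dck, also on a marked probe set, 78.4, 60.2, 68.7 and 119 units. A further list held E2F factors, cyclins and kinases of the entry into S phase, with Tfdp1 and Myc. None of its 11 genes on the array was 2-fold from unexposed at 90 h, against 0.533% of all genes higher and 0.679% lower. Their median log2 difference was 0.08 in 5 genes.

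Inhibitors of the cycle differed among themselves. Cdkn1a, the inhibitor of cyclin-dependent kinases induced by p53, read 161, 1016, 388 and 309.8 units in the unexposed, 6, 18 and 90 h pools. It was highest at 6 h, and at 90 h it was 1.92-fold above unexposed lungs. Its second probe set read 186, 280.0, 213 and 194 units, also highest at 6 h but with smaller differences. Cdkn2c, which inhibits the partners of D-type cyclins, read 197, 156, 134 and 291 units, lower at 6 and 18 h and highest at 90 h. Of the 10 inhibitor and RB family genes none was 2-fold from unexposed at 90 h, against 0.533% of all genes higher and 0.679% lower. Of the 10, 5 were above 0 and 2 below, against 3262 and 2799 of all 8251 genes. The median log2 difference of the list was 0.34 in 6 genes.

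Markers of cells that could carry such transcripts moved in part with them. Of 14 macrophage markers on the array, 8 had a log2 difference above 0 at 90 h and 2 below. Of all 8251 genes, 3262 were above 0 and 2799 below. The median of the macrophage markers was 0.44 in 9 genes. Their summed level was 4840, 4058, 4150 and 5819 units in the unexposed, 6, 18 and 90 h pools, of which Lyz2 made up 56.5%, and without it 1854, 1734, 1882 and 2741 units. Sums without the brightest gene were added after seeing the data. Chil3, a lectin of activated macrophages, was 2.16-fold and Mrc1, the mannose receptor, 2.04-fold higher at 90 h, while Siglec1 was at least 1.77-fold lower and Marco, Msr1 and Itgam were below the floor in every pool. The part of macrophages in the 90 h values of cell division genes was not tested.

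Lymphoid and erythroid markers had medians at or below 0 at 90 h against unexposed lungs. B cell markers had a median log2 difference of -0.42 at 90 h, with 7 of 9 below 0 and none above. Of all 8251 genes, 2799 were below 0 and 3262 above. The summed level of the B cell markers was 2936, 1577, 1978 and 2032 units. T cell and thymocyte markers had a median of -0.15 at 6 h, -0.41 at 18 h and 0.00 at 90 h, and sums of 3579, 2385, 2189 and 2591 units. A marked probe set of Rag1 made up 68.7% of these sums, its other probe set was below the floor, and without Rag1 they were 955, 814, 671 and 919 units. Set against 18 h, the 90 h pool was higher for 7 of the 11 T cell and thymocyte markers and lower for none. Of all 8251 genes, 3168 were higher and 2808 lower. The T cell and thymocyte markers then had a median of 0.44, while macrophage markers had a median of 0.56. Ptcra, a receptor chain of immature thymocytes, read 154, 138, 81.4 and 131 units, and Cd3g, Cd3d, Cd8a and Cd8b1 were below the floor in all pools. Erythroid markers had a median of -0.24 at 90 h, with 5 of 9 below 0 and 2 above. The 2 above were Ank1 and Rhag, which were below the floor in unexposed lungs. Epb42 read 162 units in the unexposed pool and 43.0 at 90 h by its brightest probe set. The sums of the erythroid markers were 9427, 9760, 8935 and 7377 units, of which Hba-a1 made up 84.9%. Without it they were 1234, 1534, 1424 and 1172 units. The part of these cells in the values of cell division genes at 6, 18 and 90 h was not tested.

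**Figure D5:**
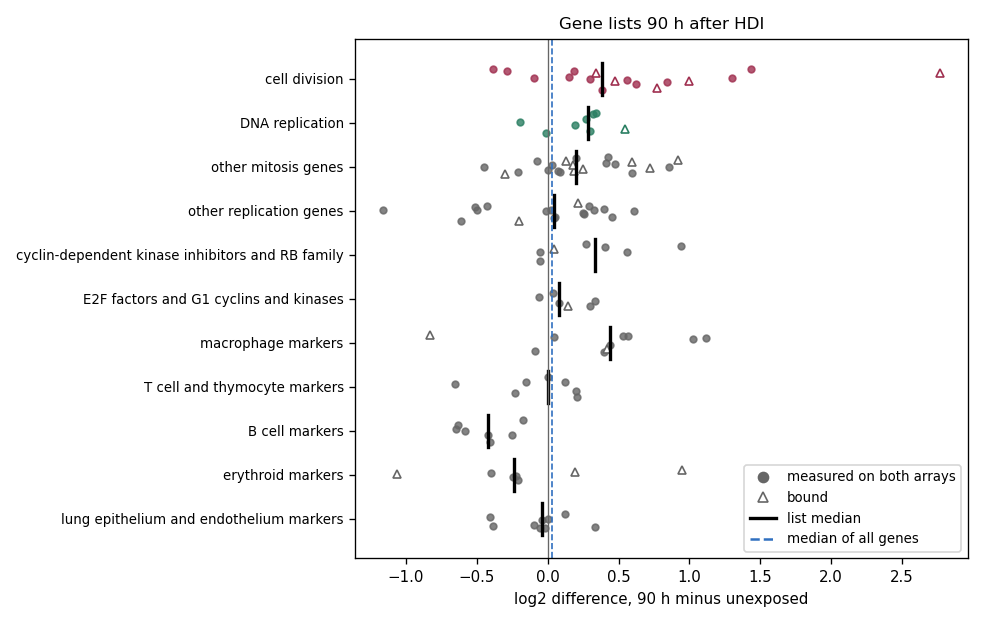
Log2 difference between the 90 h and unexposed pools for each gene of 11 lists (points, with open triangles for bounds and genes at the floor in both pools left out) and the list median over genes with a mean above the floor (black bar). The medians of cell division genes (0.38) and macrophage markers (0.44) lie to the right of that of all genes (0.03, dashed), and the median of B cell markers (-0.42) to its left.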

How the data were processed

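Total RNA of 4 pooled lung samples was measured on 1 array each. For every probe set the authors deposited a linear intensity per array. How these were computed (software, background, any scaling) is not given in the sources used here. Of exact zeros, the unexposed array held 184 and the 6, 18 and 90 h arrays 102, 105 and 126. None was negative.

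Of 12488 probe sets, 66 controls, 396 with several symbols in the platform annotation and 1193 without an entry were left out of gene counts, which left 10833 with 1 symbol. Symbols were updated through the gene identifier against RefSeq, which changed 0. Arrays were scaled to their common mean after trimming 2% at each end, with factors of 1.07, 0.993, 0.970 and 0.972. The floor was the 40th percentile of all scaled values. The probe set with the highest mean stood for its gene, and genes were counted at 2-fold. The code was tested on simulated data. Python 3.11.15, numpy 2.4.6 and pandas 2.3.3 were used.

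Members, lists, motifs, named genes and alternatives were chosen with earlier results of these data known. Values on every array are given for members 2-fold from unexposed at any time and for the 8 furthest at 90 h and the 4 furthest at 6 and at 18 h. Further members are given by role, and up to 4 genes per other list. Alternatives were other scalings, floors and thresholds, a pseudocount of 50, the mean over probe sets, unmarked probe sets only and all members at any level.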

Additional observations from a re-analysis of the deposited data

Results flagged for a closer look

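Members that lay beyond the yardstick of technical noise in opposite directions at different times are given here. With 1 array per pool this difference was not tested. Ccna2 had a log2 difference from unexposed at 90 h that exceeded that at 18 h by 0.95. Stmn1 had one at 90 h that exceeded that at 6 h by 1.25, by its brightest probe set. For Rrm1 the difference between 90 h and 6 h was 0.61, with the 6 h value at the floor. Its log2 differences from unexposed, -0.29 at 6 h and 0.32 at 90 h, passed the yardstick only narrowly.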

How the results depend on the processing

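No paired analysis was possible because each group is 1 pooled sample. The number of arrays and signal close to background limit these results. The median and count of each member set were recomputed under the alternatives. Of these values, 288 stayed within the yardstick or within 1.5 times the count, while 17 did not. Counts that were 0 and stayed 0 are among the 288, and several medians were smaller than the yardstick to begin with. The 288 is therefore no measure of how stable the results are. Of 24 cell division genes, 3 were at least 2-fold higher at 90 h than in unexposed lungs, against 0.533% of all genes. This count became 7 when the floor was lowered to the 25th percentile, against 1.1%. It became 1 when the floor was raised to the 60th, against 0.267%, and 5 with a pseudocount, against 0.606%. At a threshold of 1.5-fold it was 7, against 2.51%, and at 3-fold 1, against 0.158%. With the low floor Cdk1, Mki67, Top2a and Cks2 joined Birc5, Cdc20 and Ccnb2, and with the high floor Birc5 alone remained. A floor shortens differences of dim genes by construction. Against 18 h the count was also 3, against 0.654% of all genes. It became 7 with the low floor (0.909%), 8 at 1.5-fold (2.67%) and 1 at 3-fold (0.158%). The median against 18 h became 0.74 with the low floor, 0.84 without marked probe sets and 0.84 without Ccne1, Ccnd1 and Chek1. The last of these settings was chosen after seeing the data. At 1.5-fold, 1 of 24 cell division genes was lower at 6 h, against 4.44% of all genes, and 1 lower at 18 h, against 4.47%. Of 15 replication genes 1, Mcm3, was higher at 18 h, against 4.97%. These counts lie near the shares of all genes. The Mcm3 value is a bound from a marked probe set, and its other probe set had a log2 difference of 0.18. Replication medians, -0.17 at 6 h and -0.01 at 18 h, became 0.26 and 0.28 with the high floor, which left 3 genes. At 90 h the replication median became 0 over all members. Unscaled values moved the median of all genes to 0.07, 0.13 and 0.17 at 6, 18 and 90 h. Among members, a change of sign was looked for only in those 2-fold from unexposed, which were Birc5, Cdc20 and Ccnb2 at 90 h. None changed sign, but values this far from 0 could hardly do so. With all probe sets averaged, Stmn1 and Plk1 had log2 differences of 0.18 and 0.10 at 90 h.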

Other observations

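Ung, a uracil-DNA glycosylase that removes uracil at replication forks, read 325, 141, 162 and 145 units in the unexposed, 6, 18 and 90 h pools, from a probe set with a suffix that warns of cross-hybridisation. It was 2.30-fold lower at 6 h and 2.24-fold lower at 90 h. Its unmarked probe set had smaller differences, with 183, 143, 144 and 165 units.

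CHR matches stood in 5 of 6 promoters of cell division genes at least 1.5-fold higher at 90 h. They stood in 8 of 12 promoters of the other cell division genes on the array, against 19.2% of all promoters. NF-Y boxes stood in 5 of 6 and 9 of 12, against 37.4%. E2F matches stood in 2 of 6 and 1 of 12, against 8.07%. The one of the 6 without a CHR match or NF-Y box was Birc5. The other 12 include genes without a fold and genes whose lower limit is under 1.5-fold, such as Top2a and Cks2. They are not genes shown to be unchanged, and the 6 include Plk1, which cannot be read clearly.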
